A study of Homo sapiens with 20 samples.

Results

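A set of 8 genes of cystine uptake, glutathione synthesis and glutathione use was followed across 4 groups of human liver cancer cells. They were SLC7A11, SLC3A2, GCLC, GCLM, GSS, GSR, GPX4 and CHAC1, taken as a list of symbols, and all 8 of them were found among the 26038 gene symbols measured. The labels give the cells as the line MHCC-97H, from a human hepatocellular carcinoma, and every group spent 15 minutes in a water bath and then 24 hours in an incubator. The first experiment bathed wild-type cells at 37 °C in group R-37 and at 47 °C in group R-47. The second bathed 2 groups at 47 °C, NC, labelled wild type, and NFS1, labelled as a knockdown of that gene, so that its control was itself heated. The series describes the knockdown as made with shRNA, but its design text does not name the gene and its title spells it NSF1. NFS1 is the mitochondrial cysteine desulfurase that takes sulfur from cysteine for iron-sulfur clusters. The study was concerned with resistance to ferroptosis, a cell death driven by lipid peroxidation, in cells that survive sublethal heat. Each group had 5 RNA-seq libraries, and the labels name neither the shRNA sequence nor the number of clones.

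Cystine, the oxidised dimer of cysteine, enters cells through an antiporter built of the light chain SLC7A11 and the heavy chain SLC3A2. Inside, cysteine is joined to glutamate by glutamate-cysteine ligase, whose catalytic subunit is GCLC and whose modifier subunit is GCLM, and glutathione synthetase (GSS) adds glycine to give glutathione. GPX4 uses glutathione to reduce lipid hydroperoxides, glutathione reductase (GSR) returns the oxidised form to glutathione with NADPH, and CHAC1 cleaves glutathione inside the cell. Several of these genes are known targets of the transcription factors NRF2, which answers oxidative stress, and ATF4, which answers amino acid shortage and other stresses.

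The genes lie on different chromosomes, with positions from RefSeq on GRCh38.p14. SLC7A11 spans 138164097 to 138242349 on chromosome 4, SLC3A2 62856109 to 62888860 on chromosome 11, GCLC 53497341 to 53545101 on chromosome 6 and GCLM 93885199 to 93909430 on chromosome 1. GSS spans 34928432 to 34956027 on chromosome 20, where NFS1 also lies, at 35668052 to 35699352. GPX4 spans 1103994 to 1106779 on chromosome 19 and CHAC1 40953471 to 40956512 on chromosome 15. All 8 are protein-coding.

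RefSeq promoter sequence on GRCh38.p14 was at hand for 5 of the 8 genes, SLC3A2 and GPX4 among them with 3 start sites each. The 250 bases before each start were searched on both strands for TGANNNNGC, the core of the antioxidant response element bound by NRF2, and for TGATGNAA, an element bound by ATF4 with a C/EBP partner. The first motif occurred in 35.2% of 35116 promoters of that length and the second in 3.14%. The matches in SLC3A2, GCLM and CHAC1 are shown because these genes differed between groups, each with up to 10 flanking bases, on the strand of the gene, with the matched letters in capitals. A match in these letters is a description of the sequence and not a measured site.
SLC3A2, start site 1, chr11:62856038-62856066, plus strand: aagcgccaccTGAACTTGCggcgcgaaaa
SLC3A2, start site 1, chr11:62856084-62856108, plus strand: acgggagcgtGCTGGCTCAccgacc
SLC3A2, start site 3, chr11:62881652-62881680, plus strand: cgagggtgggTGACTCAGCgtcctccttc
GCLM, chr1:93909446-93909474, minus strand: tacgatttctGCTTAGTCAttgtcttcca
CHAC1, chr15:40953252-40953279, plus strand: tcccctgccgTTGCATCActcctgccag
The SLC3A2 and GCLM sequences hold the antioxidant core, the second SLC3A2 match and the GCLM match reading on the opposite strand. The last SLC3A2 sequence also holds TGACTCA, the letters of an AP-1 site, which overlap that core. CHAC1 holds the ATF4 element, also on the opposite strand, and all 250 bases of its window lie in GENCODE exons of CHAC1 itself. Neither motif was found in the windows of GCLC and GPX4.

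Depth was 32219946 to 39689939 counts per library. On a principal component analysis of all kept genes, the first component took 80.9% of the variance and separated the 2 experiments, and R-37 replicate 5, NC replicate 1 and NFS1 replicate 4 stood apart from their groups on the next components. Of 17 hepatocyte and hepatoma markers, 12 averaged at least 1 CPM (counts scaled to a common library size) in R-37 and R-47 and 10 in NC and NFS1. The summed level of these markers was 6113 to 7416 CPM in R-37, 6073 to 6799 in R-47, 4578 to 4980 in NC and 3576 to 4279 in NFS1. APOA2 was listed at 0 in every library of R-37, R-47 and NFS1, and APOC3 in every library of R-37, NC and NFS1. GPC3 was at 0 in every library of R-37 and NFS1. The summed level of 7 leukocyte markers stayed between 0.736 and 1.87 CPM in all libraries. That of 5 endothelium markers was higher, 51.9 to 79.2 CPM, but this sum rested on few genes. In each group only 2 of these 5 averaged at least 1 CPM, and CDH5 was at 0 in every library of R-47, NC and NFS1. In bulk RNA, fewer cells of a type and less RNA per cell cannot be told apart. Levels below are CPM scaled by the TMM method over all 20 libraries, given as mean ± SD over 5 libraries. Fold changes come from edgeR's quasi-likelihood test on the counts of the 2 groups compared, with Benjamini-Hochberg adjusted p over all genes tested, and a gene was called below 0.05.

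The transcript named in the knockdown label was measured first. NFS1 stood at 70.7, 65.2, 64.2, 64.0 and 68.3 CPM in the 5 NFS1 libraries and at 71.5, 72.7, 71.4, 71.9 and 76.0 in NC. In CPM every NFS1 library lay below every NC library. Of all genes tested, 21% had no overlap between these groups, counting both directions. In FPKM, the count scaled by gene length and library total, the groups overlapped, with NFS1 replicate 1 at 25.4 and NC replicate 1 at 25.3. The difference was small, a log2 fold change of -0.11 (SE 0.05), or 0.926 times the NC level. It was not called (edgeR adjusted p = 0.11, and 0.0437 to 0.32 over the alternatives). An exact permutation test over the CPM of the 10 libraries gave p = 0.0079, two-sided. That is the smallest value it can give, and any gene without overlap would get it. The label NFS1 is used below as the name of a group. Protein was not measured.

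The first comparison asked what heating left in the axis 24 hours later. Of the 8 genes, SLC3A2, the heavy chain of the antiporter, was called higher in R-47 than in R-37, and none was called lower by edgeR or by DESeq2. Of all genes tested in this comparison, 25.1% were called, 11.9% as higher. The median log2 fold change of the 8 was 0.11, against -0.01 over all genes tested. At an unadjusted p below 0.05, GCLC and GCLM were lower and SLC3A2, GSS, GSR and GPX4 higher. The share of all genes at that threshold was not counted, so these are named as a description only.

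SLC3A2, the heavy chain that carries SLC7A11 to the plasma membrane, was at 526, 429.9, 505, 474 and 405 CPM in the 5 R-37 libraries. In R-47 it was at 546, 556, 574, 574 and 588 CPM. All R-47 libraries lay above all R-37 libraries. Of all genes tested, 18% had no overlap between the 2 groups, counting both directions. SLC3A2 rose 1.22-fold, from 468 ± 50 to 568 ± 16 CPM (log2 fold change 0.28, SE 0.06, edgeR adjusted p = 0.0040, and 0.000229 to 0.0148 over the alternatives).

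SLC7A11, the light chain that binds cystine and glutamate, did not separate the 2 temperatures. Its levels were 267, 334, 303, 322 and 376 CPM in R-37 and 364, 308, 303, 346 and 321 CPM in R-47. The R-37 libraries spanned the whole range of the R-47 libraries. The log2 fold change was 0.04 (95% interval -0.12 to 0.20) and was not called. With offsets for length and GC content it was 0.21 and SLC7A11 was called higher (edgeR adjusted p = 3.99e-05).

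Both subunits of glutamate-cysteine ligase were lower on average in R-47, without passing the threshold. GCLC was at 196 ± 16 CPM in R-37 and 180.1 ± 6.5 in R-47 (log2 fold change -0.12, SE 0.06, edgeR adjusted p = 0.13). GCLM was at 359 ± 25 and 323 ± 20 CPM (log2 fold change -0.15, SE 0.06, edgeR adjusted p = 0.069). The libraries overlapped for both genes. GCLM was called lower without R-37 replicate 1 (log2 fold change -0.17, adjusted p = 0.0385) or without R-47 replicate 1 (-0.18, adjusted p = 0.0374), by the same test.

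The enzymes that complete, recycle and use glutathione had averages slightly higher in R-47, also below the threshold. GSS was at 115 ± 5 and 124 ± 8 CPM (log2 fold change 0.11, SE 0.05), and GSR at 473 ± 21 and 507 ± 22 CPM (0.10, SE 0.04). GPX4 was at 345 ± 32 CPM in R-37 and 380.3 ± 16 in R-47 (0.15, SE 0.06, edgeR adjusted p = 0.079). With libraries scaled by their total counts alone, which moved the median log2 fold change of all genes from -0.01 to 0.07 and the calls from 1714 higher and 1890 lower to 2977 and 1013, GSS, GSR and GPX4 were all called higher (log2 fold changes 0.19, 0.18 and 0.22). With offsets for length and GC content, GSR was also called higher (0.11, edgeR adjusted p = 0.0308), while GPX4 had a log2 fold change of -0.06 and was not called. Without R-37 replicate 1, GPX4 was called higher (0.19, edgeR adjusted p = 0.0105). CHAC1 was at 3.32 ± 0.48 and 3.66 ± 0.64 CPM, with a 95% interval of its log2 fold change from -0.17 to 0.47.

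**Figure D1:**
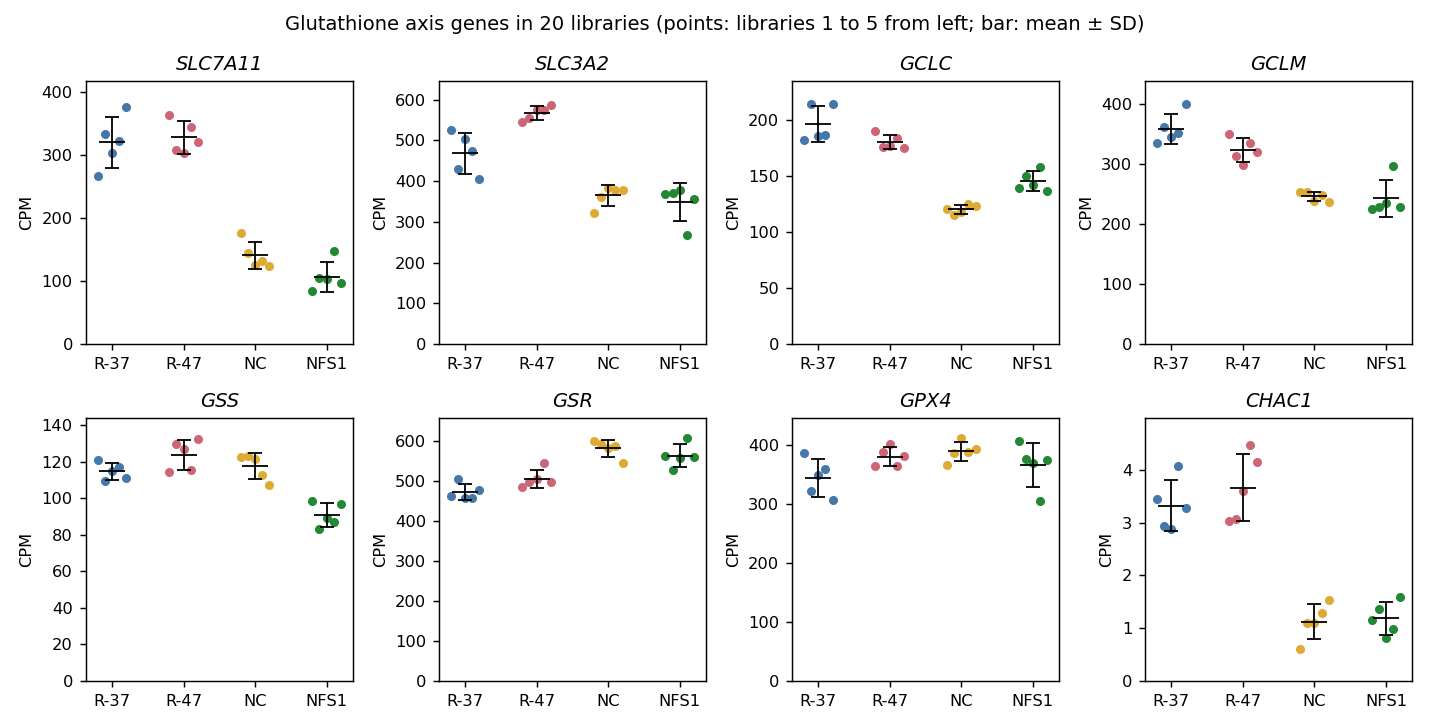
Level of each of the 8 genes (vertical axis, CPM with TMM scaling over 20 libraries, starting at 0) in the 4 groups, with a point for each of the 5 libraries and a bar for mean ± SD. SLC3A2 is highest in R-47, SLC7A11, GCLC, GCLM and CHAC1 are lower in NC and NFS1 than in R-37 and R-47, and GSS is lowest in NFS1.

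The second experiment compared NFS1 with NC, both heated. GCLC was called higher and GSS lower, so that the catalytic subunit of the first enzyme of glutathione synthesis and the second enzyme moved in opposite directions. These were 2 of 8 genes, where 28.1% of all genes tested were called, 15.7% as higher and 12.5% as lower. The libraries of the 2 groups did not overlap for these 2 genes, as for 21% of all genes tested. The median log2 fold change of the 8 was -0.04, against 0.02 over all genes. SLC7A11 also had an unadjusted p below 0.05, a threshold at which the share of all genes was not counted.

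GCLC was at 120.4, 115, 117, 125 and 123 CPM in NC. In NFS1 it was at 139, 150.1, 142, 158 and 136 CPM. The lowest NFS1 library lay above the highest NC library. GCLC rose 1.22-fold, from 120.1 ± 4.1 to 145 ± 9 CPM (log2 fold change 0.29, SE 0.06, edgeR adjusted p = 0.0013), and was called in 25 of 25 alternatives.

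GSS was at 122, 123, 122, 113 and 107 CPM in NC. In NFS1 it was at 98.5, 83.0, 89.1, 87.0 and 96.7 CPM. All NFS1 libraries lay below all NC libraries, and below the R-37 and R-47 libraries as well. GSS fell by 0.35 on the log2 scale (SE 0.06, edgeR adjusted p = 0.00080), from 118 ± 7 to 90.8 ± 6.6 CPM, and was called in 25 of 25 alternatives.

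GCLM, the partner of GCLC, stood at 254, 253, 239, 248 and 237 CPM in NC and at 225, 228, 235, 297 and 229 CPM in NFS1. NFS1 replicate 4 was the highest of the 10 libraries, and the other NFS1 libraries lay below all 5 NC libraries. The log2 fold change was -0.0016 (95% interval -0.16 to 0.16), and without NFS1 replicate 4 it was -0.09. With offsets for length and GC content GCLM was called lower (-0.15, edgeR adjusted p = 0.0128).

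SLC7A11 was at 177, 145, 126, 133 and 124 CPM in NC. In NFS1 it was at 83.9, 105, 103, 147 and 97.1 CPM. In NFS1, 4 of the 5 libraries lay below every NC library, and NFS1 replicate 4 lay above 4 of the 5 NC libraries. The averages, 141 ± 22 and 107 ± 24 CPM, differed by a log2 fold change of -0.38 (SE 0.14), which missed the threshold (edgeR adjusted p = 0.053). Over 25 alternatives the adjusted p ran from 2.1e-07 to 0.18 and SLC7A11 was called lower in 10 of them. One of these left out NFS1 replicate 4 (log2 fold change -0.52, edgeR adjusted p = 0.00032), and without NFS1 replicates 2 and 3, chosen after seeing the data, the adjusted p was 0.18. Those 2 libraries were high in inducible heat shock genes. HSPA6 was at 251 and 246 CPM in them, 22.3 to 83.1 CPM in the other NFS1 libraries and 5.41 to 39.0 CPM in NC. HSPA1A, which shares reads with a near-identical copy and is uncertain, was at 872 and 839 CPM in them, 99.3 to 297 CPM in the other NFS1 libraries and 42.5 to 244 CPM in NC. The part of the heat shock genes in the values of the 8 genes was not tested.

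SLC3A2, the other chain of the antiporter, was at 365 ± 26 CPM in NC and 349 ± 46 CPM in NFS1. In NFS1, 4 libraries were at 356 to 379.6 CPM and NFS1 replicate 4 at 268 CPM. The log2 fold change of -0.05 had a 95% interval of -0.23 to 0.13, and it was 0.03 without NFS1 replicate 4.

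GSR, GPX4 and CHAC1 were not called between NC and NFS1. GSR was at 583 ± 21 and 564 ± 29 CPM, with a 95% interval of the log2 fold change from -0.14 to 0.08. GPX4 was at 389.7 ± 16.2 and 367 ± 38 CPM, with an interval from -0.21 to 0.07. CHAC1 was at 1.12 ± 0.34 and 1.18 ± 0.31 CPM, and its interval, -0.45 to 0.63, left changes of up to 1.54-fold within it.

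**Figure D2:**
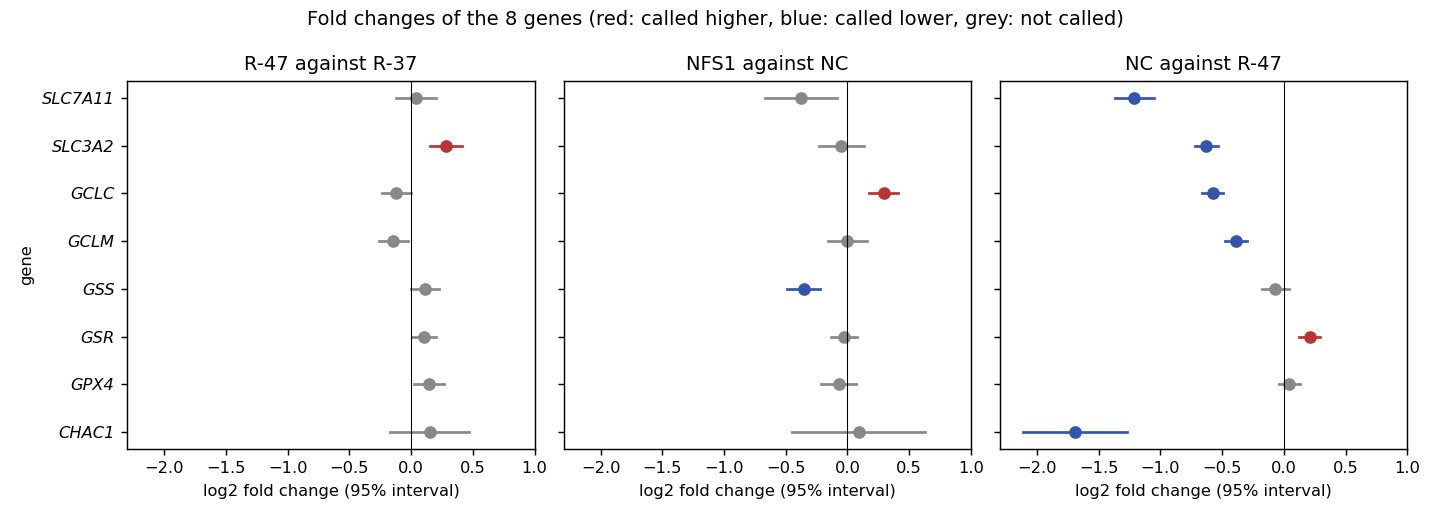
Log2 fold change (horizontal axis) with its 95% interval for the 8 genes in the 3 comparisons, from edgeR, red where called higher, blue where called lower and grey where not called. SLC3A2 is called in the heat comparison, GCLC and GSS in the knockdown comparison, and 6 of the 8 genes between NC and R-47.

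NC and R-47 carry the same labelled genotype and the same labelled bath, but belong to the 2 experiments, and experiment and group cannot be told apart. Their heat shock genes differed, with HSPA6 at 0.328 to 1.49 CPM in R-47 and 5.41 to 39.0 CPM in NC. HSPA1A was at 140 to 223 CPM in R-37, 67.7 to 94.3 CPM in R-47 and 42.5 to 244 CPM in NC. The part of these genes in the differences below was not tested. The antiporter, both ligase subunits and CHAC1 were lower in NC, and GSR was higher. That made 5 of 8 genes lower and 1 higher, where 79.7% of all genes tested were called, 39.6% as lower and 40.1% as higher. The 6 called genes did not overlap between the groups, as for 67.3% of all genes. The median log2 fold change of the 8 was -0.48, against 0.01 over all genes. This comparison shares R-47 with the heat comparison and NC with the knockdown comparison.

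CHAC1 and SLC7A11 differed most among the 8. CHAC1 was at 3.04 to 4.47 CPM in R-47 and 0.604 to 1.52 CPM in NC, 3.23-fold lower in NC (log2 fold change -1.69, SE 0.20, edgeR adjusted p = 1.14e-07). SLC7A11 was 2.32-fold lower in NC (log2 fold change -1.21, SE 0.08, edgeR adjusted p = 2.66e-12). SLC3A2 fell by 0.63 (SE 0.05), GCLC by 0.58 (SE 0.04) and GCLM by 0.39 (SE 0.04) on the log2 scale. GSR was the one gene called higher (log2 fold change 0.21, SE 0.04, edgeR adjusted p = 6.41e-05).

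GSS and GPX4 were not called between NC and R-47, and their signs depended on the scaling. GSS had a log2 fold change of -0.07 (SE 0.05), and 0.11 with library size alone (edgeR adjusted p = 0.0473), a scaling that moved the median of all genes to 0.19 and the calls from 6043 higher and 5978 lower to 7465 and 4740. GPX4 had a log2 fold change of 0.04 (SE 0.04), was called higher with library size alone (0.22, edgeR adjusted p = 3.55e-05) and lower with a length offset (-0.18, edgeR adjusted p = 9.21e-05). Markers of cell type also differed between the experiments. The summed level of 5 cholangiocyte markers was 681.6 to 800.1 CPM in R-37 and R-47 and 201.7 to 266.2 CPM in NC and NFS1, and that of 6 fibroblast and stellate cell markers 2.02 to 3.83 and 5.34 to 6.76 CPM. Their part in the differences of the 8 genes was not tested.

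Ordered over the 4 groups, the genes fell into different patterns. SLC7A11 was highest in R-47, then R-37, NC and NFS1, and only the step from R-37 to NC separated the libraries of neighbours. SLC3A2 ran from R-47 to R-37 to NC to NFS1, with R-47 apart from R-37 and R-37 apart from NC. GCLC ran from R-37 to R-47 to NFS1 to NC, and its libraries overlapped only between R-37 and R-47. GCLM followed R-37, R-47, NC and NFS1, and CHAC1 R-47, R-37, NFS1 and NC, with 1 separating step each, between the experiments. GSS ran from R-47 to NC to R-37 to NFS1, and only the last step separated the libraries. GSR was highest in NC, followed by NFS1, R-47 and R-37, and no neighbouring groups separated. GPX4 varied least, its group means running from 345 CPM in R-37 to 389.7 CPM in NC with all neighbours overlapping. The group means spanned 0.18 on the log2 scale for GPX4 and 1.63 for SLC7A11.

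Between genes, levels are compared per length, in FPKM, the count scaled by gene length and library total. GPX4 stood highest of the 8 in every group, at 267 ± 23 FPKM in R-37, 311 ± 12 in R-47, 364 ± 17 in NC and 350.1 ± 36.0 in NFS1. These FPKM carry no TMM scaling and do not serve to compare groups. In CPM with TMM the means of GPX4 ran only from 345 in R-37 to 389.7 in NC. In NFS1, GSR came next at 205 ± 9 FPKM and SLC3A2 at 157 ± 22 FPKM. GCLC and GCLM were both at 41.8 FPKM there, on the lengths the authors used, GSS at 33.5 FPKM and SLC7A11 at 12.1 FPKM. CHAC1 was the lowest in every group, at 0.199 to 0.569 FPKM as group means. Its deposited FPKM used a length of 6081 bases, against 1849 bases for its longest GENCODE transcript, and therefore understates its level per length.

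The 2 chains of the antiporter were present in unequal amounts of transcript. The ratio of SLC3A2 to SLC7A11 in FPKM was 5.97 ± 1.38 in R-37, 6.94 ± 0.63 in R-47, 10.6 ± 2.1 in NC and 13.7 ± 3.8 in NFS1. SLC3A2 is also known to pair with other light chains. In NFS1 the ratio was 17.5, 14.1, 14.7, 7.26 and 14.6, and in NC it was 7.25, 9.92, 12.2, 11.4 and 12.2. In 4 NFS1 libraries the ratio lay above every NC library, and NFS1 replicate 4 lay within the NC range. The transcripts differ in GC content, 57.4% for SLC3A2 and 35.4% for SLC7A11. In each group the highest ratio was in the library whose deviation from its group, over all kept genes, had the highest Spearman's rho with GC. These were R-37 replicate 1 (0.61), R-47 replicate 3 (0.49), NC replicate 3 (0.52) and NFS1 replicate 1 (0.59). The part of GC content in this ratio was not tested.

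The ligase subunits were compared in the same way. The ratio of GCLC to GCLM in FPKM was 0.915 ± 0.042 in R-37, 0.933 ± 0.033 in R-47, 0.816 ± 0.042 in NC and 1.01 ± 0.08 in NFS1. In NFS1 it was 1.03, 1.10, 1.01, 0.891 and 0.995, and in NC 0.792, 0.758, 0.823, 0.842 and 0.866. Every NFS1 library lay above every NC library, and R-37 and R-47 overlapped. The deposited FPKM of GCLM used a length of 6387 bases, against 4857 bases for its longest GENCODE transcript, while that of GCLC used 3820 against 3813 bases. The size of this ratio depends on these lengths, and the order of the groups does not.

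**Figure D3:**
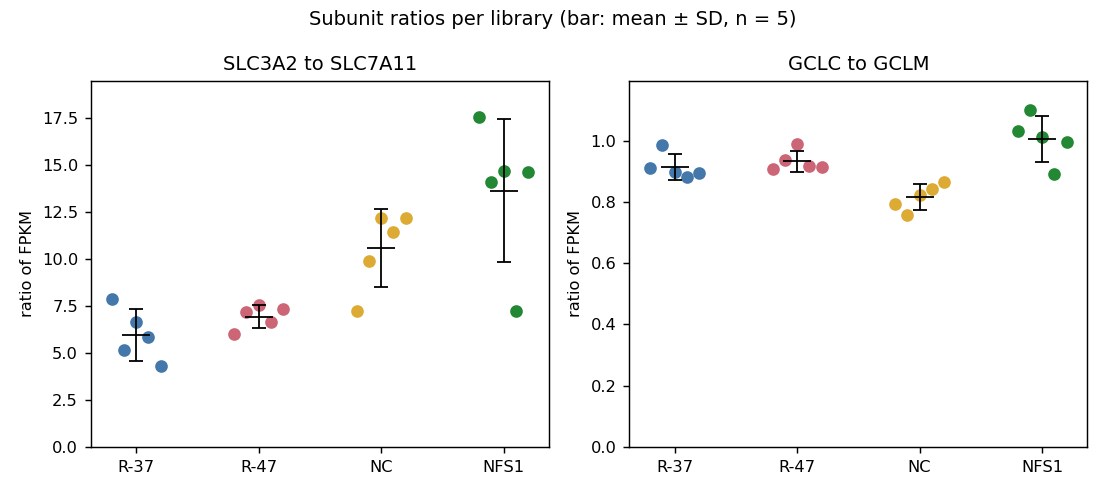
Ratio of FPKM in each library (vertical axis, starting at 0) for SLC3A2 to SLC7A11 and for GCLC to GCLM, by group, with bars for mean ± SD over 5 libraries. The antiporter ratio is highest in NFS1 except in replicate 4, and the ligase ratio of every NFS1 library lies above that of every NC library.

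NFS1 replicate 4 stood apart from its group in several of the 8 genes. Relative to its group mean it was higher in SLC7A11 by 0.48, GCLM by 0.30 and GCLC by 0.125 on the log2 scale, while SLC3A2 lay at -0.37 and GPX4 at -0.26. The first 3 transcripts have 35.4, 37.3 and 44.3% GC and the other two 57.4 and 62.5%. Over all kept genes with a known GC content, the deviation of this library from its group had a Spearman's rho of -0.72 with GC, and over all kept genes of 0.36 with length, as a description across genes of 1 library. R-37 replicate 5 was like it, with a rho of -0.70 with GC, SLC7A11 at 0.24 and SLC3A2 at -0.20, and R-37 replicate 1 was its opposite, with a rho of 0.61, SLC7A11 at -0.26 and SLC3A2 at 0.18. With offsets for length and GC content, SLC7A11 was called lower in NFS1 than in NC (log2 fold change -0.59, edgeR adjusted p = 2.1e-07).

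**Figure D4:**
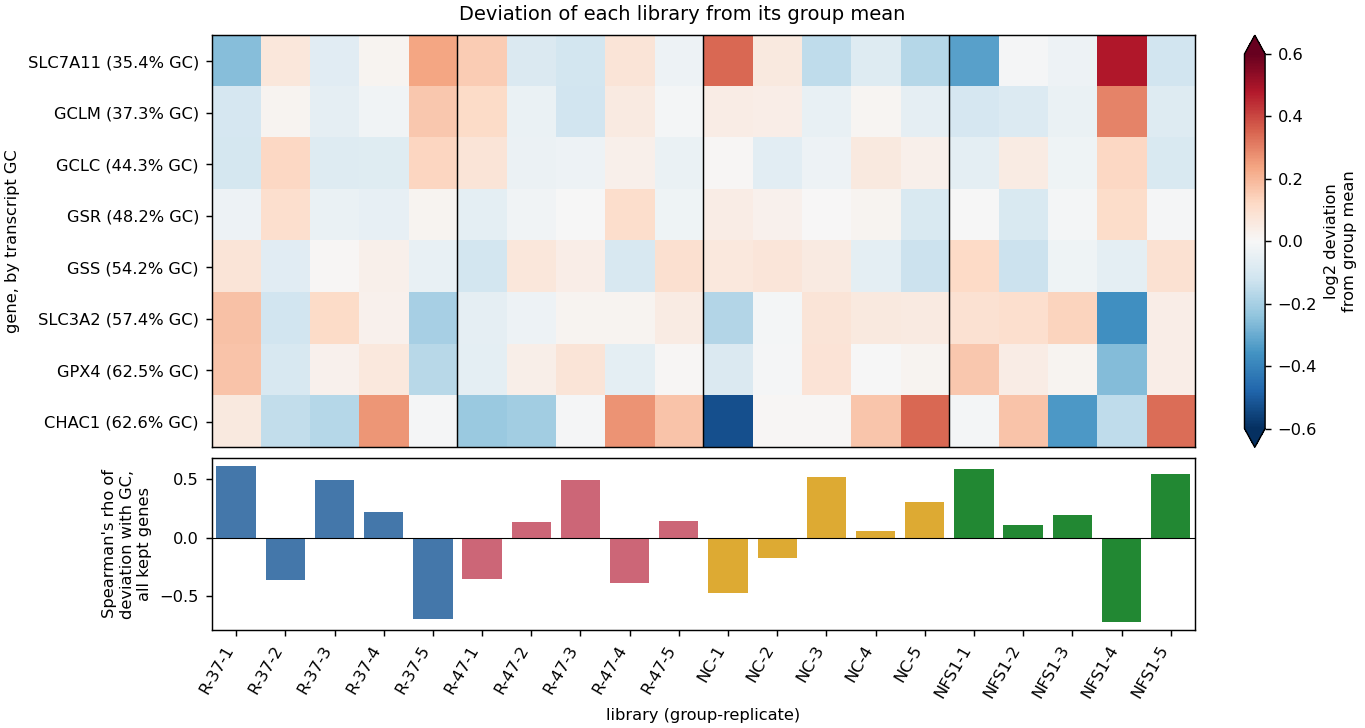
Upper panel, log2 deviation of each library (columns, 5 per group) from its group mean for the 8 genes, ordered from low to high transcript GC (colours beyond the ends of the scale are capped). Lower panel, Spearman's rho between the deviation and GC content over all kept genes. In R-37 replicate 5 and NFS1 replicate 4, where rho is -0.70 and -0.72, SLC7A11 and GCLM are high and SLC3A2 and GPX4 low.

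The wider pathway was read from 12 lists of 164 genes, none of them among the 8. In R-47 against R-37, 15 genes of these lists were called higher and 28 lower of 140 tested. For NFS1 against NC the numbers were 24 and 35 of 141, and in NC against R-47 48 and 75 of 143. The shares called, 30.7, 41.8 and 86.0%, stand beside 25.1, 28.1 and 79.7% of all genes. The medians of the lists ran from -0.13 (transferases) to 0.07 (light chains) in the heat comparison and from -0.17 (light chains) to 0.22 (selenocysteine insertion) in the knockdown comparison, beside -0.01 and 0.02 over all genes. Between NC and R-47 they ran from -1.17 (light chains) to 0.29 (transferases), beside 0.01. Where edgeR called no gene of a list in 1 direction below, DESeq2 also called none, except for 1 light chain higher with heat. At an unadjusted p below 0.05 such a list had 0 or 1 gene in that direction. The exceptions, in NFS1 against NC, were NADPH supply with 2 higher and NRF2 control with 4 higher. No share of all genes was counted at that threshold.

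The first lists hold genes that supply cysteine or remove it. Of 13 supply genes tested, 1 was lower with heat, AHCY, which releases homocysteine (log2 fold change -0.19, SE 0.05), although with library size alone 1 was higher and none lower, and of 7 catabolic genes 2 were lower, led by the mitochondrial persulfide dioxygenase ETHE1 (-0.42, SE 0.08). In NFS1 against NC, 2 supply genes were higher and 3 lower. CTH, which makes cysteine from cystathionine, was higher (0.49, SE 0.13), and SLC3A1, the heavy chain of another cystine carrier, lower (-0.79, SE 0.14). Of the catabolic genes, 2 were higher there, led by the cysteamine dioxygenase ADO (0.30, SE 0.05), and 1 lower, the sulfurtransferase TST (-0.28, SE 0.10), a call lost with library size alone and with length and GC offsets. Relative to R-47, in NC 3 of 14 supply genes were higher and 10 lower, among them the neutral amino acid carrier SLC1A4 (-1.28, SE 0.06), and of 7 catabolic genes ADO (0.72, SE 0.05) was the first of 3 higher and SQOR, a sulfide oxidising enzyme, the first of 2 lower (-1.02, SE 0.05). BHMT, which remethylates homocysteine, was the leading gene higher, at 0.094 ± 0.093 CPM in R-47 and 1.35 ± 0.40 in NC.

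Of the 4 tested light chains that SLC3A2 serves besides SLC7A11, SLC7A6 was lower with heat (-0.18, SE 0.06) and SLC7A7 was lower in NFS1 (-0.31, SE 0.09). With library size alone 1 light chain was higher with heat and none lower. For NC against R-47, 3 were lower and 1 higher: SLC7A5, which carries large neutral amino acids, fell by 1.69 (SE 0.05, log2), and SLC7A6 rose (0.26, SE 0.05). The median of these 4 was -1.17 there, beside the lower SLC3A2 and SLC7A11.

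Glutathione breakdown and transport had 16 genes tested. With heat 1 was higher and 5 lower (3 and 2 with library size alone), the gamma-glutamyltransferase GGT1 rising (0.51, SE 0.09) and its relative GGT5 falling by 0.84 (SE 0.16). Relative to NC, in NFS1 4 were higher and 6 lower, with the export pump ABCC2 higher (0.62, SE 0.06) and GGT1 lower (-0.55, SE 0.07). In NC against R-47, 5 were higher and 11 lower, led by ABCC5 (0.85, SE 0.05) and ABCC2 (-1.40, SE 0.04).

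NADPH feeds glutathione reductase. Of 13 genes of NADPH supply, 1 was higher with heat, the pentose phosphate lactonase PGLS (0.26, SE 0.09), and 6 were lower, led by malic enzyme ME1 (-0.39, SE 0.06), a split that became 4 higher and 3 lower with library size alone. For NFS1 against NC, none of 14 was higher and 6 were lower, and the list's median was -0.15 against 0.02 over all genes. With length and GC offsets 2 were higher and 8 lower. Relative to R-47, in NC 4 were higher and 7 lower (6 and 6 with library size alone), with MTHFD1L of folate metabolism lower (-0.96, SE 0.05) and ALDH1L1 going from 0.00562 ± 0.01257 to 1.66 ± 0.38 CPM.

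The list of other glutathione peroxidases also held the peroxiredoxin PRDX6 and the microsomal glutathione transferases MGST1, MGST2 and MGST3. Its counts are therefore not of the GPX family alone. Of 9 genes tested, 2 were higher with heat, led by the secreted GPX3 (0.52, SE 0.06). The 3 lower were GPX8 (-0.39, SE 0.07), PRDX6 and MGST3, the last 2 named after their values were seen. In NFS1 against NC none of 8 was higher and 2 were lower, GPX3 (-0.26, SE 0.05) and GPX1, the latter named after its value was seen (-0.33). For NC against R-47, 4 were higher and 4 lower of 9, led by GPX3 (1.44, SE 0.05) and MGST3 (-0.64, SE 0.06).

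Glutathione transferases, which attach glutathione to other molecules, gave 1 gene lower with heat of 12 tested, GSTM3 (-0.20, SE 0.05), and 2 higher and none lower with library size alone. In NFS1 against NC, GSTO1 was the 1 higher (0.44, SE 0.07) and 3 were lower, led by GSTZ1 (-0.62, SE 0.11). In NC against R-47, 6 were higher and 5 lower, led by GSTP1 (1.32, SE 0.05) and GSTA1 (-1.08, SE 0.06).

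The thioredoxin and glutaredoxin system, the parallel thiol pathway, had 16 genes tested. With heat 4 were higher and 3 lower (6 and 1 with library size alone). SRXN1, which restores overoxidised peroxiredoxins, rose (0.38, SE 0.04) and the mitochondrial peroxiredoxin PRDX3 fell by 0.39 (SE 0.05). Relative to NC, in NFS1 4 were higher and 6 lower, with SRXN1 lower (-0.42, SE 0.05) and the iron-sulfur protein GLRX3 higher (0.76, SE 0.06, edgeR adjusted p = 1.9e-06). Relative to R-47, in NC 9 were higher and 5 lower, led by GLRX5 (0.75, SE 0.05) and the thioredoxin reductase TXNRD1 (-1.14, SE 0.03).

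GPX4 is a selenoprotein, and its synthesis needs selenocysteine to be made and inserted. The list for that machinery had 9 genes tested, among them LRP8, a receptor that neither makes nor inserts selenocysteine. With heat none was higher and 2 were lower, led by the selenophosphate synthetase homologue SEPHS1 (-0.20, SE 0.04). For NFS1 against NC, 5 were higher and 1 lower (5 and none with library size alone, 4 and none with length and GC offsets), and the list's median was 0.22 against 0.02 over all genes. SEPHS1 was the first of the 5 (0.22, SE 0.05), and the others, named after their values were seen, were PSTK (0.57), SEPSECS (0.35), SECISBP2 (0.25) and LRP8 (0.23). TRNAU1AP, which binds the selenocysteine tRNA, was the 1 lower (-0.23, SE 0.08). For NC against R-47, 1 was higher and 6 lower, TRNAU1AP (0.78, SE 0.09) and LRP8 (-1.19, SE 0.05) leading. GPX4 itself was not called in any of the 3 comparisons.

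Among other selenoproteins, 1 of 12 was higher with heat, SELENOM (0.34, SE 0.10), and 2 were lower, led by SELENOF (-0.29, SE 0.07), and with library size alone 2 were higher and 1 lower. In NFS1 against NC none of 13 was higher and 3 were lower, led by SELENOT (-0.41, SE 0.08). In NC against R-47, 5 were higher and 6 lower, with SELENOH falling by 1.64 (SE 0.07) and DIO2 going from 0.00562 ± 0.01256 to 6.62 ± 2.20 CPM.

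The last lists hold genes of NRF2 and ATF4 control. That of ATF4 mixes regulators with target genes such as DDIT4, so its counts are not of regulators alone. Of 10 genes of NRF2 control, 2 were higher with heat and none lower, led by the autophagy receptor SQSTM1 (0.21, SE 0.05), and in NFS1 against NC 1 was lower, KEAP1, the NRF2 adaptor (-0.36, SE 0.11). NC against R-47 had 4 higher and 5 lower (5 and 4 with library size alone), led by MAFF (0.66, SE 0.07) and SQSTM1 (-0.99, SE 0.04). Of 19 genes of ATF4 control, 4 were higher and 2 lower with heat, led by the phosphatase subunit PPP1R15A (0.55, SE 0.06) and the serine synthesis enzyme PHGDH (-0.35, SE 0.10), and with library size alone 5 and none. In NFS1 against NC, 6 were higher and 2 lower, led by VLDLR (0.82, SE 0.10) and EIF2S1 (-0.25, SE 0.05). Relative to R-47, in NC 3 were higher and 11 lower, with ATF4 falling by 0.97 (SE 0.04) and PHGDH rising (2.25, SE 0.07), and this split became 7 and 7 with library size alone.

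**Figure D5:**
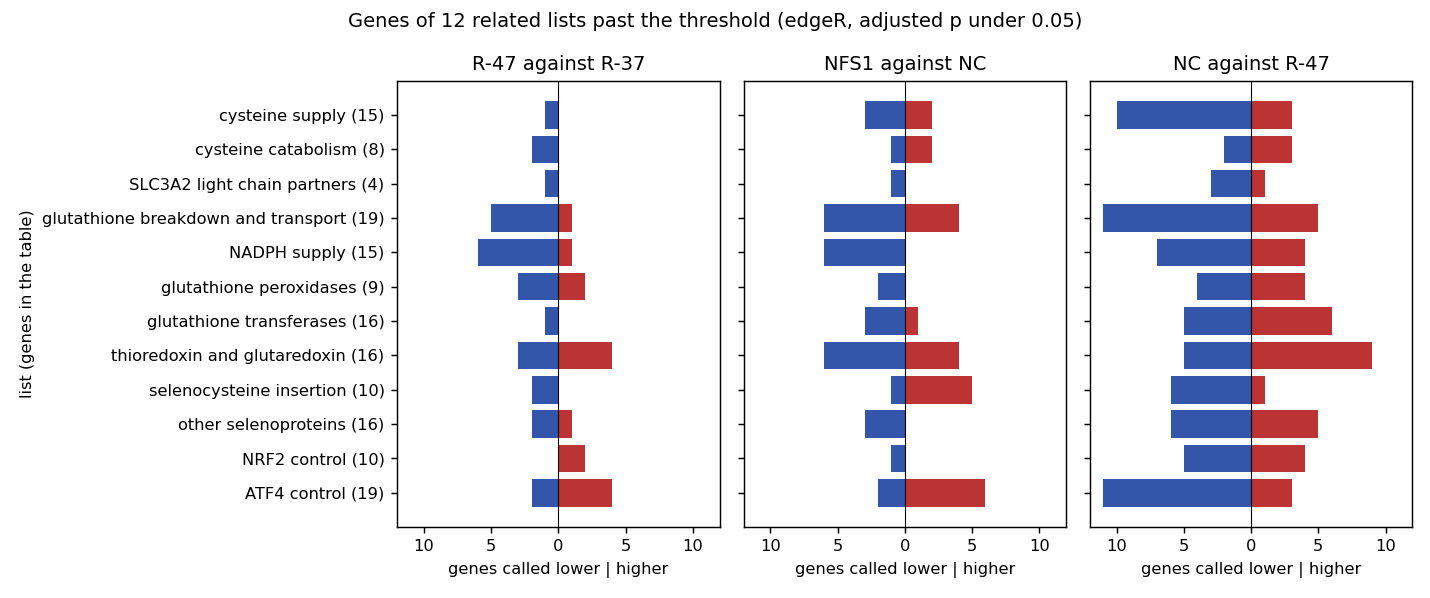
Number of genes called lower (blue, to the left) and higher (red, to the right) in each of 12 lists for the 3 comparisons, from edgeR at an adjusted p below 0.05, with the number of list genes in the table in brackets. NADPH supply has 6 genes lower and none higher in NFS1 against NC, and selenocysteine insertion 5 higher and 1 lower.

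SLC7A11 and CHAC1 were the 2 genes of the 8 whose group means spanned more than 1 on the log2 scale. For each, the genes with the smallest root-mean-square difference in centred log2 CPM over the 20 libraries were found among 4337 genes with a span of that size. For SLC7A11 these were LAMP2, a lysosomal membrane protein (0.135), the ubiquitin ligase RNF128 (0.15) and the centrin CETN2 (0.17). LAMP2 stood at 265, 240.2, 100.3 and 78.1 CPM in R-37, R-47, NC and NFS1, a course that follows SLC7A11 through all 4 groups except for the small step between R-37 and R-47. For CHAC1 they were the lysosomal sialidase NEU1 (0.211), the catenin CTNND1 (0.215) and the unnamed locus LOC107986217 (0.216).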

How the data were processed

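RNA of cells labelled MHCC-97H was measured in 20 libraries, 4 groups of 5, grouped by title. TRIzol extraction, polyA RNA and a VAHTS library kit are named per the labels' protocols. Per the submitters' processing notes, fastp, HISAT2, HTSeq and hg38 were used. Versions, annotation and strand handling were not given in the sources used here. Counts deposited by the authors are whole numbers per gene symbol, not normalised. The deposited FPKM equal the count divided by 1 length per gene and by the library's total count.

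Each comparison used its 2 groups only. Genes were kept by edgeR's filterByExpr (minimum count 10, total 15), scaled by TMM and tested by edgeR's quasi-likelihood F test with Benjamini-Hochberg adjustment at 0.05. All 8 genes passed this filter in each comparison. The SE of a fold change is its log2 value over the root of F. Log2 levels for deviations and likeness used CPM + 0.5, and GC content came from GENCODE transcripts. The test was also run on simulated counts in which some genes were changed by known folds. Of genes changed 1.25-fold, it recovered 50% in the heat comparison, 20% in NFS1 against NC and 74% in NC against R-47. At 1.5-fold these were 98, 74 and 94%. A gene that was not called may therefore still differ by such a fold. No label ties the libraries of a group to separate cultures. The p-values then measure only the spread between these samples, possibly technical.

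The members and lists were chosen with earlier results of these data known. By rule the text names the 8 genes, NFS1, of each list in each comparison the called gene of smallest adjusted p in each direction, and 3 genes nearest to each member spanning over 1 on the log2 scale. One gene named by this rule is not reported here. Alternatives were DESeq2 size factors, no filter, scaling by library size alone, DESeq2, limma-voom, a minimum count of 50, 1 fit over 20 libraries, the replicate block, length and GC offsets, limma on FPKM as log2(FPKM + 1), filtered at a mean of 1 or unfiltered, and as log2(FPKM + 0.1), and each library left out. R 4.3.3, edgeR 4.0.16, limma 3.58.1, DESeq2 1.42.0, Python 3.11.15, pandas 2.3.3, numpy 2.4.6, scipy 1.17.1 and matplotlib 3.10.9 were used.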

Additional observations from a re-analysis of the deposited data

Results flagged for a closer look

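Each of the 8 genes was looked at in each of the 4 groups for a library far from the other 4 of its group, 32 groups in all, of which chance flags about 1 in 20. Both values found came from NFS1 replicate 4. SLC3A2 was at 267.8 CPM there and at 356.0 to 379.6 CPM in the other NFS1 libraries, a gap of 0.789 of the whole range. GCLM was at 296.6 CPM there and at 225.4 to 234.9 CPM in the others, a gap of 0.866 of the range. Without this library, SLC3A2 and GCLM were at log2 fold changes of 0.03 and -0.09 against NC.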

How the results depend on the processing

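Nothing in the labels pairs the libraries, and same-numbered libraries did not deviate together (correlations of -0.145 to 0.141 in R-47 against R-37, -0.318 to 0.0984 in NFS1 against NC and -0.00704 to 0.22 in NC against R-47). With the replicate block, 1, 2 and 6 of the 8 genes were called in the 3 comparisons, as without it, and 35, 47 and 124 list genes in place of 43, 59 and 123.

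In R-47 against R-37, 1 of the 8 genes was called, 4 with library size alone and in the 3 settings on FPKM, 3 with length and GC offsets, and 1 to 3 with 1 library left out. SLC7A11 reversed without R-37 replicate 1 or R-47 replicate 1 (range -0.01747 to 0.1115), and GPX4 with length and GC offsets (-0.05719). In NFS1 against NC, 2 were called, 4 with length and GC offsets, 3 with DESeq2 size factors, limma-voom, DESeq2, no filter, a length offset, all 20 libraries or a minimum count of 50, and 2 to 3 with 1 library left out. Reversed values there, none of them called, were 0.0403 for SLC3A2, 0.0003898 for GSR and 0.07981 for GPX4 with length and GC offsets, and 0.01793 for GPX4 with length alone. GCLM was at 0.01372 with library size alone and at 0.006289, 0.006283 and 0.006289 on FPKM. With 1 library left out, SLC3A2 ran from -0.09504 to 0.03024, GCLM from -0.08677 to 0.02144 and CHAC1 from -0.07072 to 0.2209. In settings added after seeing the data, CHAC1 was at -0.0141 without NC replicate 1 and NFS1 replicate 4, and GCLM at 0.03457 without NFS1 replicates 2 and 3, which also lowered the list genes called from 59 to 38. The NFS1 transcript passed with DESeq2 (-0.1249, adjusted p = 0.0437) and with all 20 libraries in edgeR (-0.1286, adjusted p = 0.0485). In NC against R-47, GSS reversed with library size alone (0.1114) and on FPKM (0.1093, 0.1118 and 0.1093), and GPX4 with a length offset (-0.1845) and with length and GC offsets (-0.1085). The cause of these shifts was not tested. Of 586 single-gene values with a test under an alternative, 524 kept direction and side of the threshold, 28 reversed and 34 came past the threshold. CHAC1 had no value where a mean FPKM of 1 was required, nor at a minimum count of 50 in NFS1 against NC. It had the lowest level of the 8 and the widest 95% interval in each comparison.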

Other observations

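GSS, lower in NFS1 than in NC, lies on chromosome 20 near NFS1. After the values had been seen, the tested genes within 5 Mb of each of the 8 genes were counted. Of 91 such genes around GSS, 9 were higher and 14 lower in NFS1 against NC (9.89 and 15.4%, beside 15.7 and 12.5% of all genes), with a median log2 fold change of -0.05. Of 29 genes around GCLC, 1 was higher and 1 lower. Around SLC3A2, which was not called, 84 of 216 genes were lower (38.9%) and 6 higher, with a median of -0.18. With heat, where SLC3A2 was called higher, 43 of 205 genes around it were higher and 13 lower, with a median of 0.09. That is 21.0 and 6.34%, beside 11.9 and 13.2% of all genes. Around GSS and GPX4, not called with heat, 25.0 and 19.0% were higher and 13.1 and 3.52% lower. The medians there were 0.07 and 0.12. Around the others of the 8, 5.56 to 13.8% were higher. GGT5, of glutathione breakdown, and DDIT4, a target of ATF4, were also noticed after seeing their values. Their log2 fold changes in NFS1 against NC were 2.76 (SE 0.39) and 0.85 (SE 0.15). In NC against R-47, GGT5 was at -4.99 (SE 0.29), so its rise in NFS1 started from a lower level than in R-47.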
